A study of Mus musculus with 2 samples.

Results

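The genes described here are the mouse Eph receptors, their ephrin ligands, the semaphorins, and the plexins and neuropilins that receive semaphorin signals. They were taken by name pattern from the gene table, with no measured value used, and are 53 of its 31017 genes. They comprise 14 Eph receptor genes, 8 ephrin genes, 20 semaphorin genes, 9 plexin genes and 2 neuropilin genes. RNA was sequenced from TUBO, a mouse mammary cancer cell line founded from a mammary tumour of a BALB/c mouse with a rat Her2/neu transgene. The cells received no treatment and grew in flat culture on plastic, in DMEM/F12 medium with serum. The labels give 1 group of 2 libraries, replicate 1 and replicate 2, so no condition is set against another and gene levels are what is reported. The labels do not say whether the replicates were separate cultures, so the spread between them may be technical. TUBO is 1 cell line of 1 mouse strain, and the levels hold for it alone.

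Eph receptors are receptor tyrosine kinases that bind ephrins on neighbouring cells, and the ephrin-bearing cell can signal in return. Ephrins of the A class are held in the membrane by a lipid anchor, while those of the B class span it. Semaphorins are secreted or membrane-bound ligands of plexins, which act on small GTPases inside the cell, and most secreted class 3 semaphorins need a neuropilin as a co-receptor. These families were first known from axon guidance and also set cell spacing, branching and boundaries in epithelia, the mammary gland included.

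Replicate 1 held 35453278 counts and replicate 2 held 34098259 counts. Levels are in CPM, the count of a gene divided by the effective size of its library. Where genes are compared with each other, CPM per kilobase of annotated exons is used, and values after ± are SDs between the libraries (n = 2). Detection means at least 1 CPM in replicate 1 and in replicate 2. The floor, the level that a count of 0 still allows, is 3 counts, or 0.0842 CPM in replicate 1 and 0.0885 CPM in replicate 2, for counting error only. The labelled cell type was checked on marker lists, and all 10 epithelial genes were detected, led by Krt18 at 1217 ± 15.2 CPM. Of 10 endothelial markers 0 were detected, and Cdh5, Kdr, Emcn and Erg had no count. Of 10 neuronal markers Map2 alone was detected (81.7 ± 0.604 CPM), while Tubb3, Snap25, Stmn2, Nefl and Nefm had no count. Postn and Pdgfra were the fibroblast markers detected of 10, and Cd68 the leukocyte marker of 10. The summed CPM of these lists was 5662 and 5473 for epithelial genes in replicates 1 and 2, against 0.701 and 0.619 for endothelial, 82.2 and 81.3 for neuronal, 20.1 and 19.8 for fibroblast and 10.1 and 10.0 for leukocyte genes. In a bulk sample, fewer cells that express a gene and less RNA per cell cannot be told apart.

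Of the 53 guidance genes 35 were detected, 10 had counts but lay below 1 CPM in at least 1 library, and 8 had no count. Of all genes 37.7% were detected, and 50.6% of protein-coding genes. No count was found for 41.0% of all genes. Among the guidance genes 21 of 28 ligand genes and 14 of 25 receptor genes were detected. Their summed share of all counts was 0.296% in replicate 1, with a 95% Wilson interval of 0.294% to 0.298%. In replicate 2 it was 0.291%, with an interval of 0.289% to 0.293%. The 7 members at 100 CPM or more in both libraries were Sema3b, Plxnb2, Plxnb1, Nrp2, Ephb3, Ephb4 and Efnb2, where 7.46% of all genes reached that level. The median level of the 35 detected members was 4.74 CPM per kilobase, against 7.99 over detected protein-coding genes, and 14 of the 35 lay above that value. Each of the 53 symbols matched 1 gene of GENCODE M21 (GRCm38), and the members lay on 19 chromosomes.

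**Figure D1:**
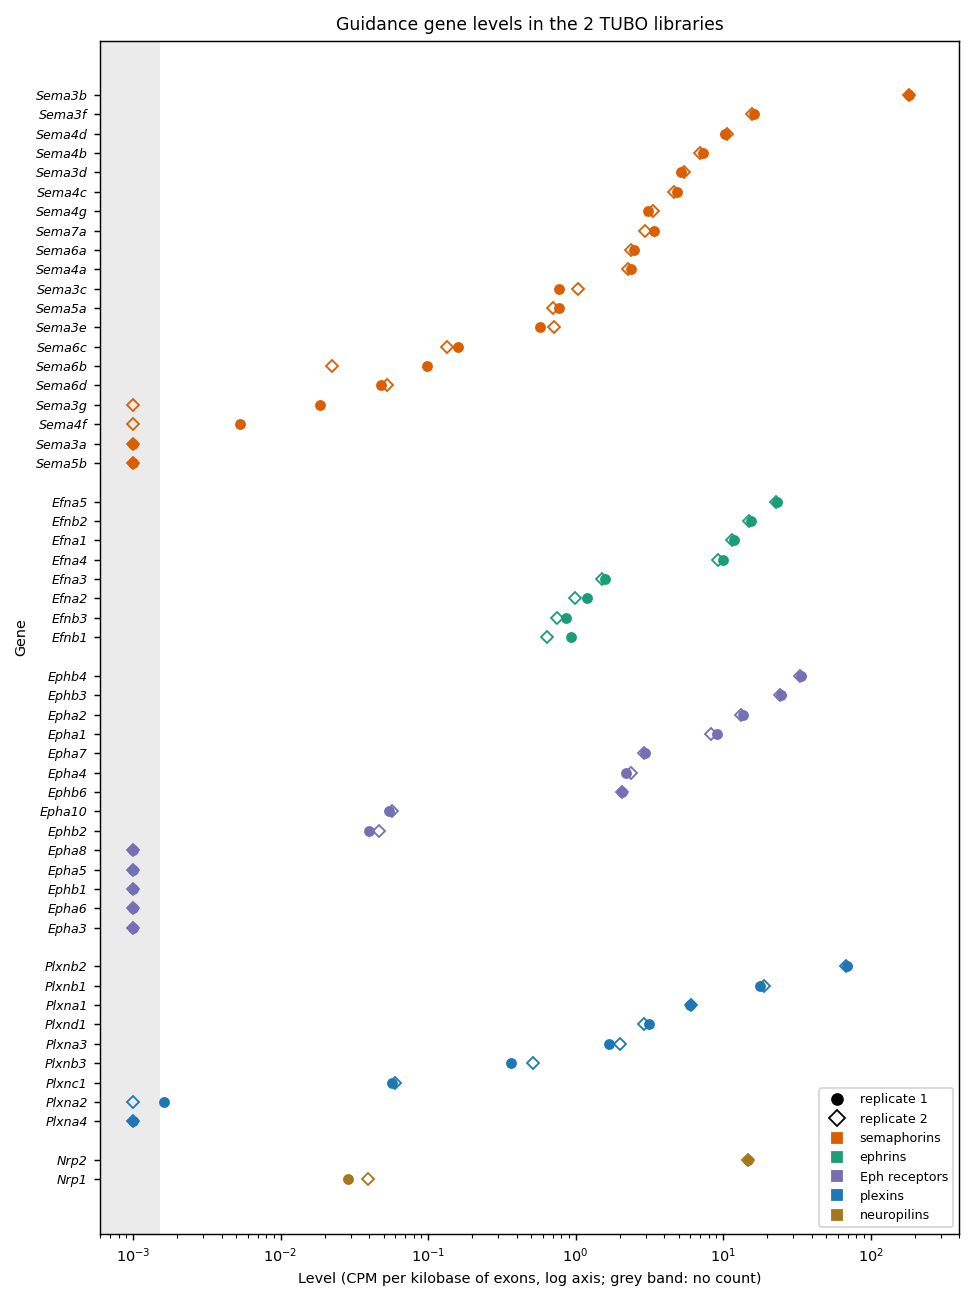
Level of each of the 53 guidance genes in CPM per kilobase of exons on a log axis, with a filled circle for replicate 1 and an open diamond for replicate 2, coloured by family. Sema3b lies highest at 183 CPM per kilobase, and 8 genes, 5 of them Eph receptors, lie in the grey band of genes with no count in both libraries.

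The upstream sequences of a few members are shown first because the CpG content of members with and without counts overlapped there. The 250 bases before the start of transcription were read from RefSeq (GRCm38.p6) for 47 of the 53 members. Those without an entry were Efnb3, Sema3b, Sema3f, Sema6a, Plxna1 and Plxna4. Below are the windows of Ephb4, the Eph receptor gene with the highest level per kilobase (chr5:137349859-137350108, plus strand), Ephb1, a receptor gene of the same class with no count (chr9:102354694-102354943, minus strand), Epha8, the member with the most CpG sites and no count (chr4:136956817-136957066, minus strand), Plxnb2, the highest plexin gene (chr15:89180789-89181038, minus strand) and Plxnc1, a plexin gene under 1 CPM (chr10:94944846-94945095, minus strand). They are written in the direction of transcription with each CpG dinucleotide (CG, which reads the same on both strands) in capitals, and were chosen after their values were seen.
Ephb4: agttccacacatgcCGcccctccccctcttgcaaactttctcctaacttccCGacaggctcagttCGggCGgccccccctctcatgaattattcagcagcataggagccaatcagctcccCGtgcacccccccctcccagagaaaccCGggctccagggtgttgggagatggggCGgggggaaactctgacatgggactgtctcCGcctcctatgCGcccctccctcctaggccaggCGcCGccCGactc
Ephb1: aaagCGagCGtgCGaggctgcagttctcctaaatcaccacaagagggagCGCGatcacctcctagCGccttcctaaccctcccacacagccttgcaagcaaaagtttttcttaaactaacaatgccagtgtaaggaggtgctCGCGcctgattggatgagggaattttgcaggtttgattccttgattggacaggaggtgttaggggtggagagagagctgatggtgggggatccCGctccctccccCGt
Epha8: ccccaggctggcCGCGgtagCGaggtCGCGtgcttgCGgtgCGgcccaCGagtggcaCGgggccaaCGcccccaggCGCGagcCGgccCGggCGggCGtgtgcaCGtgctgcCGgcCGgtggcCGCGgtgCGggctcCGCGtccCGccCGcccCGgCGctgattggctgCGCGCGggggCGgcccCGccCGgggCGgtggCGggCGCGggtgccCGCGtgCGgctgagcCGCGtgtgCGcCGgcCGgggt
Plxnb2: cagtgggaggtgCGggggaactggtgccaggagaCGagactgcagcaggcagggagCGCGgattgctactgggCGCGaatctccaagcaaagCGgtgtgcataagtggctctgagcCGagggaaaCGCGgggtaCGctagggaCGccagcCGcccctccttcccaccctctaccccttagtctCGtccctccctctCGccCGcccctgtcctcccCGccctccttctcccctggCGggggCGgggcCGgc
Plxnc1: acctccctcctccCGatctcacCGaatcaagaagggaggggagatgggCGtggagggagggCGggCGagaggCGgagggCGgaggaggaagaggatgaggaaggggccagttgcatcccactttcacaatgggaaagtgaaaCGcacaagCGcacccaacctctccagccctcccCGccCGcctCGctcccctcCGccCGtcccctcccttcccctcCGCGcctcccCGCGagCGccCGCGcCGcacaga

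The Ephb4 window held 12 CpG sites and that of Ephb1 10, and 33.5% and 37.8% of all 32841 RefSeq windows held as many. The Epha8 window held 46 CpG sites, which 0.323% of windows reached. The Plxnb2 window shown, the outermost of 2 listed starts, held 20 CpG sites and that of Plxnc1 22, which 14.8% of windows reached. At least 1 CpG was found in 92.1% of all windows. The ratio of CpG sites observed to those expected from the C and G content had a median of 0.617 over the 30 detected members with a window and 0.611 over the 17 members not detected. Over protein-coding genes of the table the medians were 0.741 for 8733 detected genes and 0.245 for 7663 genes not detected. A ratio of 0.6 or more was found in 15 of 30 detected and 9 of 17 undetected members, against 70.8% of detected and 17.2% of undetected protein-coding genes. These are descriptions with no test, and methylation was not measured.

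**Figure D2:**
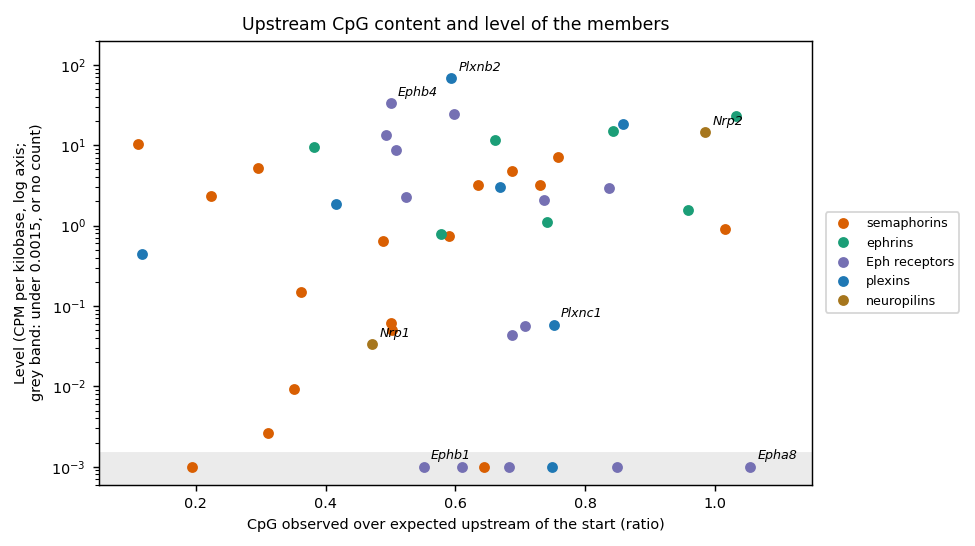
Level of 47 guidance genes in CPM per kilobase (log axis, mean of 2 libraries) against the ratio of observed to expected CpG in the 250 bases upstream of the start, as the median over a gene's listed starts. Points in the grey band had no count or lay under 0.0015; undetected members such as Epha8, at a ratio of 1.05, spread over nearly the same range of ratios as detected ones.

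Among Eph receptor genes 7 of 14 were detected, and the B-class genes Ephb4 and Ephb3 led. Ephb4, the receptor with ephrin-B2 as its main ligand, had 157 CPM in replicate 1 and 153 CPM in replicate 2, or 33.4 ± 0.596 CPM per kilobase (chr5:137350109-137378669). Ephb3 had 164 and 161 CPM, or 24.5 ± 0.232 CPM per kilobase (chr16:21204755-21223305). Per kilobase Ephb4 was 1.36 ± 0.0114 times as high as Ephb3, with no overlap between the libraries of one gene and those of the other. Without division by length Ephb4 stood at 155 ± 2.77 CPM and Ephb3 at 163 ± 1.54 CPM, so the order of this pair depends on length. With the median transcript length in place of merged exons Ephb4 was 0.518 ± 0.00433 times Ephb3, and Epha2 led the family with 34.9% of its summed level. That lead rests on a median of 750 bases for Epha2, whose longest transcript has 3913, against a median of 3894 for Ephb4. With the longest transcript Ephb4 led at 33.7%. Together Ephb4 and Ephb3 took 66.0% and 66.3% of the summed CPM per kilobase of Eph receptor genes in replicates 1 and 2, and 48.5% and 48.6% with the median transcript length.

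The third B-class gene detected was Ephb6, which encodes a receptor without kinase activity, at 7.77 and 7.84 CPM. Ephb2 had 18 and 20 counts (0.505 and 0.590 CPM, exact 95% Poisson intervals 0.299 to 0.798 and 0.360 to 0.911 CPM), and Ephb1 had none. Ephb2 and Ephb4 both encode B-class receptors, and per kilobase Ephb4 was 844 times Ephb2 in replicate 1 (exact counting interval 534 to 1426) and 705 times in replicate 2 (456 to 1155). With the median transcript length the mean ratio was 226 ± 28.7.

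Of 9 EphA genes 4 were detected. Epha2, an epithelial receptor much studied in breast cancer, led with 63.7 and 62.1 CPM, or 13.5 ± 0.236 CPM per kilobase (chr4:141301240-141329384). Epha1, the first Eph receptor to be described, followed with 35.8 and 32.7 CPM. Zyx, the zyxin gene, overlaps 6.01% of the Epha1 exons on the other strand and stood at 97.8 ± 2.04 CPM. Whether the counting used strand is not stated in the labels or notes, and the part of Zyx reads in the Epha1 level was not tested. Epha7 had 29.3 and 28.7 CPM and Epha4, which binds ephrins of both classes, 17.8 and 19.3 CPM. Epha10, another receptor without kinase activity, had 14 counts in each library. Epha3, Epha5, Epha6 and Epha8, all with roles in the developing nervous system, had no count in either library.

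All 8 ephrin genes were detected, and 4 of them carried most of the level. Efna5 was highest per kilobase at 23.0 ± 0.282 (93.4 and 91.8 CPM, chr17:62604184-62881317). Efnb2 followed at 15.2 ± 0.353 CPM per kilobase, with 106 and 102 CPM (chr8:8617434-8661242). Efna5 was 1.51 ± 0.0166 times as high as Efnb2 per kilobase, but Efnb2 was the higher in CPM, so this order too depends on length. Efnb2 took 90.5 ± 1.36% of the summed CPM per kilobase of ephrin-B genes.

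Efna1, the ligand gene most often paired with Epha2, had 21.8 and 21.1 CPM (11.7 ± 0.288 CPM per kilobase). Efna4 had 16.0 and 14.9 CPM (9.64 ± 0.488 CPM per kilobase). The other 4 ephrin genes lay between 2.12 and 3.84 CPM in each library. Efna3 had 3.84 and 3.69 CPM, Efna2 2.55 and 2.12 CPM and Efnb3 2.75 and 2.39 CPM. Efnb1 had 3.23 CPM in replicate 1 and 2.21 CPM in replicate 2, with 115 and 75 counts, the largest relative spread of any detected member at 26.4% of its mean.

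Efna1, Efna3 and Efna4 lie within 66.3 kb of chromosome 3 (89271733 to 89338028), with no other protein-coding gene of the table between them. Their levels per kilobase did not run together, since Efna3 stood at 1.55 ± 0.0458 between its higher neighbours. Antisense genes overlap 14.1% of the Efna3 exons (Gm15998, 57 counts in each library) and 10.5% of the Efna4 exons (4731419I09Rik, 25 counts in each library). Efna3 itself had 137 and 125 counts, and Efna4 had 569 and 504. Both levels are uncertain, since the part of antisense reads in them was not tested.

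Semaphorin genes were dominated by Sema3b, with 13 of 20 detected. Sema3b encodes a secreted ligand that signals through neuropilins, and its human counterpart lies in a region of chromosome arm 3p often lost in lung cancer. It had 875 CPM in replicate 1 and 874 CPM in replicate 2 from 31201 and 29636 counts (chr9:107597674-107609229). At 183 ± 0.223 CPM per kilobase it ranked 139 among the 30416 genes with a length, above 99.5% of them. It took 76.2 ± 0.165% of the summed CPM per kilobase of semaphorin genes, and the other 19 summed to 57.7 and 56.9 in replicates 1 and 2.

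Of the class 3 genes, 5 of 7 were detected. Sema3f, which prefers neuropilin-2, was the second semaphorin gene per kilobase of merged exons (15.9 ± 0.387, with 84.1 and 81.3 CPM), but Sema4d stood above it with the median transcript length. Sema3b was 11.5 ± 0.266 times as high as Sema3f per kilobase. Sema3d had 44.4 and 46.5 CPM, Sema3c 5.55 and 7.46 CPM, and Sema3e, a ligand of plexin D1 that does not need a neuropilin, 5.33 and 6.63 CPM. Sema3a, the classical collapsin that binds neuropilin-1, had no count, and Sema3g had 3 counts in replicate 1 and 0 in replicate 2.

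Sema3b and Sema3f share a stretch of 113 kb on chromosome 9. Of the 3 other protein-coding genes of the table between them, Gnai2 was abundant (716 ± 21.6 CPM), while Slc38a3 had 1 count in each library and Gnat1 had 7 and 9. A second stretch, of 1873 kb on chromosome 5, holds Sema3d, Sema3a and Sema3e, with Sema3a at no count between 2 detected genes. Neighbouring members on chromosome 16 (Epha6 and Epha3) both had no count, and all 4 other protein-coding genes between them were detected.

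Class 4 semaphorins are mostly membrane-bound, and 5 of their 6 genes were detected, from 2.33 to 10.5 CPM per kilobase. Sema4d, the ligand of plexin B1, led with 79.6 and 81.4 CPM (10.5 ± 0.162 CPM per kilobase). Sema4b had 41.1 and 39.5 CPM. Sema4g and Sema4c encode ligands of plexin B2. Sema4g had 961 and 982 counts (3.23 ± 0.163 CPM per kilobase), and Sema4c had 22.2 and 21.3 CPM. Sema4a had 12.9 and 12.3 CPM, and Sema4f 1 count in replicate 1 alone. Of the remaining classes, Sema6a (22.0 and 20.8 CPM), Sema5a (14.4 and 13.2 CPM) and the lipid-anchored Sema7a (11.3 and 9.73 CPM) were detected. Sema6c had 34 and 27 counts, just under 1 CPM. Sema6d had 18 and 19 counts, Sema6b 14 and 3, and Sema5b none.

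Plexin genes were dominated by class B, which took 89.0% and 88.8% of their summed CPM per kilobase in replicates 1 and 2. Of 9 plexin genes 6 were detected. Plxnb2, the class B plexin prominent in epithelia, had 535 and 527 CPM, or 68.7 ± 0.743 CPM per kilobase (chr15:89155549-89180788). It was the second guidance gene after Sema3b and took 69.8 ± 0.893% of the plexin level. Plxnb1, whose protein can pair with the receptors Met and Erbb2, had 171 and 181 CPM (18.4 ± 0.720 CPM per kilobase, chr9:109095389-109119917). Plxnb3 had 2.38 and 3.36 CPM, far below both others of its class.

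Plxna1 led class A with 54.2 and 54.7 CPM, and an antisense gene with 34 and 29 counts, Gm26811, overlaps 10.7% of its exons. Plxna3 had 13.3 and 15.8 CPM. Plxna2 had 1 count in replicate 1 alone and Plxna4 none. Plxnd1, known as a receptor of endothelial cells, had 22.9 and 21.3 CPM, in libraries where the endothelial markers Cdh5 and Kdr had no count. Plxnc1, the receptor of Sema7a, had 17 counts in each library, or 0.477 and 0.501 CPM (exact 95% Poisson interval in replicate 1 0.278 to 0.764 CPM).

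The neuropilin genes lay at opposite ends. Nrp2 had 6229 and 5903 counts, or 175 and 174 CPM (14.7 ± 0.0418 CPM per kilobase, chr1:62703285-62818695). Nrp1 had 10 and 13 counts, or 0.281 and 0.383 CPM (exact 95% Poisson intervals 0.135 to 0.516 and 0.204 to 0.655 CPM). Per kilobase Nrp2 was 515 times Nrp1 in replicate 1 (exact counting interval 280 to 1074) and 375 times in replicate 2 (219 to 705). The mean ratio was 445 ± 98.6, and 292 ± 64.7 and 274 ± 60.6 with the longest and the median transcript length. Neuropilin proteins also bind VEGF proteins, VEGF-A and VEGF-C among them. The genes Vegfc (6.09 ± 0.559 CPM) and Vegfa (58.1 ± 0.538 CPM) were both detected.

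**Figure D3:**
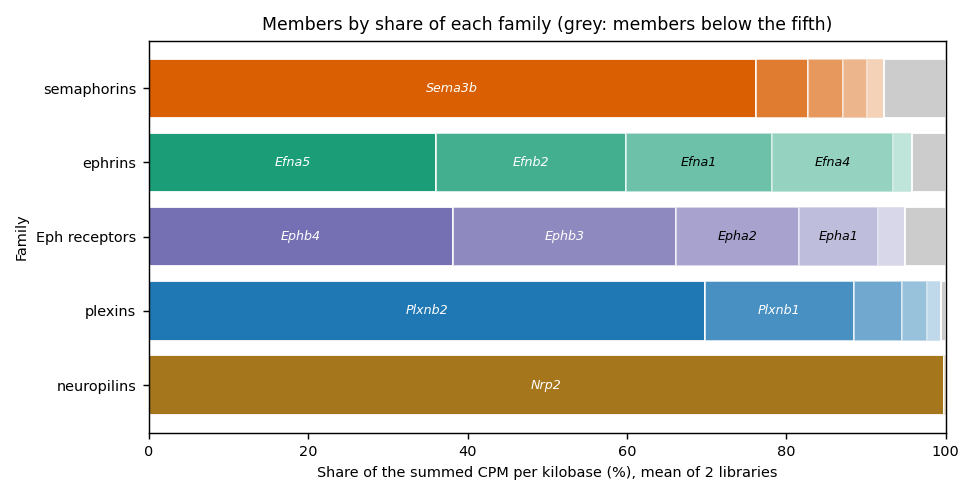
Share of each member in the summed CPM per kilobase of its family, as the mean of 2 libraries, with bars that each add to 100% and members below the fifth in grey. Single genes take most of 3 families, Nrp2 at 99.8%, Sema3b at 76.2% and Plxnb2 at 69.8%, while Ephb4 and Efna5 take 38.2% and 36.0% of theirs.

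The 35 detected members were put in order of CPM per kilobase of merged exons. Of the 34 pairs of neighbours in that order, 10 overlapped in range over the libraries and so did not differ beyond their spread. These pairs ran in 3 stretches, from Sema4g through Sema7a and Plxnd1 to Epha7, from Sema6a through Sema4a to Epha4, and from Efna2 through Sema3c, Efnb3, Efnb1 and Sema5a to Sema3e. The 18 highest members, from Sema3b to Sema4c, showed no such overlap, and 25 of the 35 held the same rank in both libraries. A range of 2 values leaves out counting error. It therefore does not settle the order of close pairs such as Efnb2 and Nrp2, with a ratio of means of 1.03. The order also depends on length, and 7 of the 10 highest members stayed among the 10 with the median transcript length. No order is given a p-value, because the smallest that an exact sign test allows over 2 libraries is 0.5.

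Ligand genes and receptor genes were next set side by side by textbook pairing, with levels summed per kilobase. Ephrin-A genes summed to 47.0 ± 1.25 and EphA genes to 27.5 ± 0.717 CPM per kilobase, a ratio of 1.71 ± 0.000720. This direction depended on the length used, since the ratio was 1.43 ± 0.00144 with the longest transcript, 0.623 ± 0.00279 with the median transcript length and 0.934 ± 0.00202 without division by length. In the B classes the sums were 16.8 ± 0.641 for ephrin-B and 60.0 ± 0.810 for EphB genes, a ratio of 0.280 ± 0.00691. With the other lengths and without length this ratio lay between 0.305 and 0.336, so the B-class direction held in each. For the closely matched pair of Efnb2 and Ephb4 the ratio was 0.455 ± 0.00246, and 0.928 ± 0.00502 with the median transcript length. An SD of such a ratio over 2 libraries can fall below counting error and does not measure precision. For Ephb4 over Epha2, at 2.48 ± 0.000807 per kilobase, the exact counting interval in replicate 1 was 2.36 to 2.61.

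In the semaphorin system the class 3 ligands of neuropilin and class A plexins summed to 205 ± 0.260 CPM per kilobase, with Sema3b as the main part, against 7.85 ± 0.262 for class A plexins. Sema4d stood at 0.571 ± 0.0136 times its receptor gene Plxnb1, and at 0.882 ± 0.0209 times with the longest transcript. Sema4c, Sema4d and Sema4g together stood at 0.268 ± 0.00555 times Plxnb2. Sema3e and Sema4a together stood at 0.986 ± 0.0550 times Plxnd1, a difference within the spread between libraries. That ratio was 1.51 ± 0.0740 with the longest transcript and 0.395 ± 0.0112 with the median transcript length, so it has no settled direction. Some ligand genes lacked a detected plexin partner. Sema7a (3.19 ± 0.338 CPM per kilobase) faced Plxnc1 at 0.0586 ± 0.00206, a ratio of 54.6 ± 7.69. That ratio was 7.96 ± 1.12 with the median transcript length. The other known Sema7a receptor is an integrin with subunits encoded by Itga1 and Itgb1. Itga1 was detected at 0.986 ± 0.0248 CPM per kilobase and Itgb1 at 187 ± 3.53. Sema6a was detected while its receptor genes Plxna2 and Plxna4 had 1 and 0 counts over both libraries. For Plxna1, which was detected, the ligand gene Sema6d was below 1 CPM. Its other paired ligand genes Sema3b, Sema3c, Sema3d, Sema3f and Sema5a were detected. These are RNA levels summed over genes, and no protein or binding was measured.

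**Figure D4:**
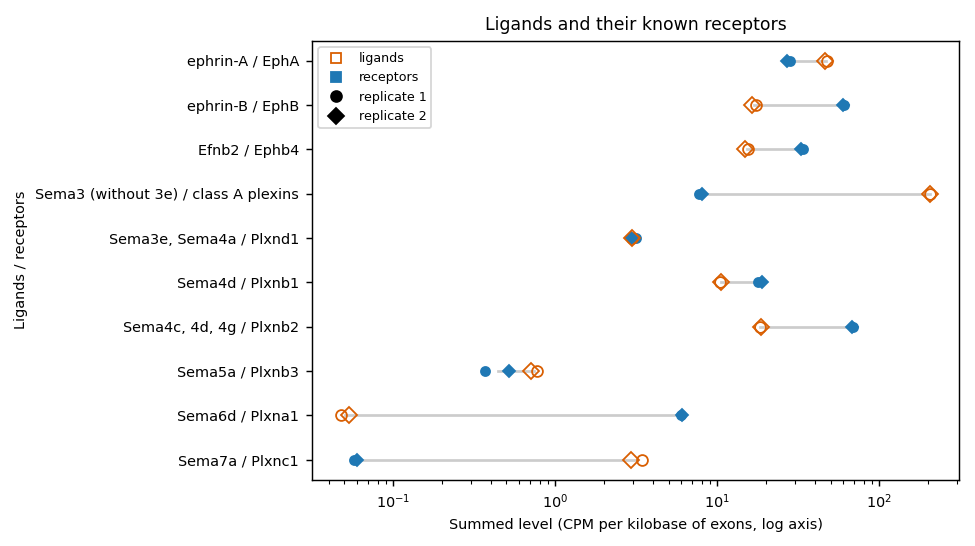
Summed level in CPM per kilobase (log axis) of ligand genes (open orange) and of their known receptor genes (filled blue), with circles for replicate 1 and diamonds for replicate 2. Ephrin-B genes lie below EphB genes, and Sema7a and Plxnc1 lie far apart. Ephrin-A genes lie above EphA genes with the merged exons used here, but not with the median transcript length or without division by length.

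The libraries were compared gene by gene with a two-sided exact binomial test on the counts, adjusted by Benjamini-Hochberg over all 13336 genes that passed the expression filter, 40 guidance genes among them. The test compares these 2 libraries against counting error and says nothing of conditions. Of the 40 tested members 2 were called at an adjusted p under 0.05, both lower in replicate 1, where 8.13% of all tested genes were called, 4.46% higher and 3.67% lower in replicate 1. Sema3c had 198 and 253 counts, a log2 ratio of replicate 1 to replicate 2 of -0.42 (exact binomial test, adjusted p = 0.0283). Plxnb1 had 6109 and 6144 counts, a log2 ratio of -0.08 (exact binomial test, adjusted p = 0.0320). Gm7628, an antisense gene over 2.68% of the Plxnb1 exons, had 100 and 129 counts. Of the 10 epithelial markers 5 were called higher in replicate 1, and their part in the member calls was not tested. Both calls depended on the scaling or the expression filter. Plxnb1 was not called when libraries were scaled by total counts or DESeq2 size factors. Neither was called without the expression filter. Neither was called by edgeR's exact test, which allows for the common dispersion of the same libraries and called 0 of 40 members and 0.142% of all genes. That dispersion was estimated from the 2 libraries under test, so few calls are built in and nothing is read from this result. At an unadjusted p under 0.05, 8 of 40 members passed the exact binomial test, against 19.9% of all genes tested, and 5 of 40 passed edgeR's exact test, against 5.52%.

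The 35 detected members were measured with little spread. The SD over the libraries had a median of 3.29% of the mean, and 21 of 35 members were under 5%. The median absolute log2 ratio between libraries was 0.07 over the detected members and 0.06 over all detected genes. Of the 40 tested members 25 were higher in replicate 1, against 50.7% of all genes tested, with a median log2 ratio of 0.03 against 0.00.

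**Figure D5:**
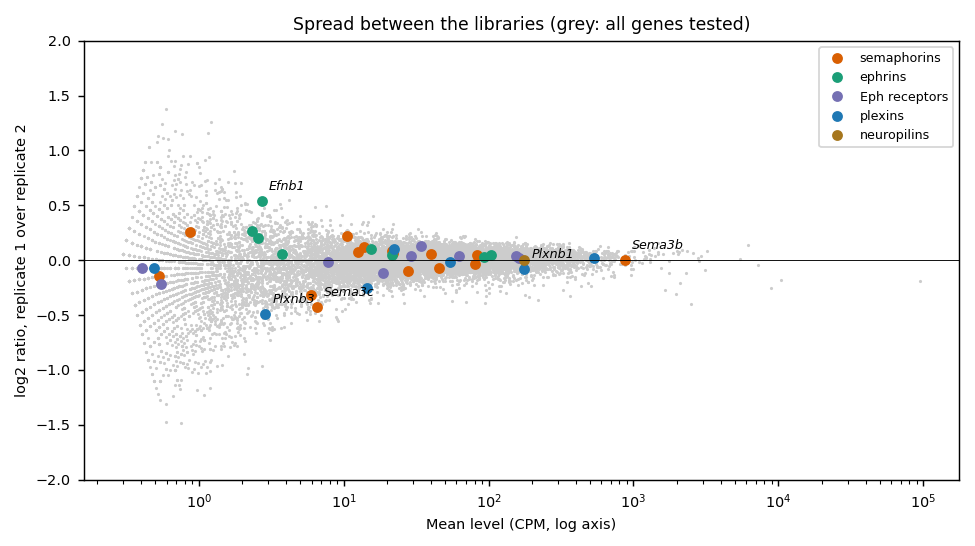
The log2 ratio of replicate 1 to replicate 2 against mean level in CPM (log axis) for the 40 tested guidance genes, coloured by family, over all 13336 tested genes in grey. The members lie within the cloud of all genes, with Sema3c (-0.42) and Plxnb1 (-0.08) as the 2 called members and the widest ratios at low levels.

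Genes that carry the signals of these receptors inside the cell were detected for the most part. Calls between the libraries in each list below stand beside the 8.13% of all tested genes called, and nothing is read from them. Detected counts stand beside the 37.7% of all genes and 50.6% of protein-coding genes detected. The lists were chosen with earlier results of these data known, so nothing is read from the detected counts either. Of 28 genes of proteins that act next to Eph receptors 22 were detected, led per kilobase by the kinase gene Src (51.2 ± 0.370), the adaptor gene Crk (41.2 ± 1.25) and the lipid phosphatase gene Inppl1 (34.1 ± 0.872), while the adaptor gene Grb10 had no count. None of the 23 tested was called between the libraries by the exact binomial test. Of 14 genes of ephrin shedding and reverse signalling 11 were detected, led per kilobase by the ephrin-cleaving protease gene Adam10 (102 ± 2.13), the syntenin gene Sdcbp (46.1 ± 0.0144) and the adaptor gene Nck2 (32.0 ± 0.658), and 0 of 12 tested were called.

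Of 39 genes downstream of plexins 35 were detected. The actin-severing cofilin gene Cfl1 (455 ± 1.47 CPM per kilobase), the collapsin response mediator gene Dpysl2 (79.8 ± 6.16) and the small GTPase gene Rac1 (79.1 ± 0.0488) led. The related mediator genes Crmp1 and Dpysl4 had no count, and Dpysl3 had 2 in each library. Of 35 tested, 3 were called higher in replicate 1 (Dpysl2, Rhoa and Farp1) and 1 lower (Arhgef12). Both RhoA exchange factor genes that bind class B plexins were detected, Arhgef12 at 280 ± 16.8 CPM and Arhgef11 at 70.9 ± 1.23 CPM.

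Of 23 genes of co-receptors and other binding partners 13 were detected. Itgb1, Erbb2 (132 ± 2.34 CPM per kilobase) and Ptk7 (55.4 ± 1.69) led, and the VEGF receptor genes Kdr and Flt4 and the adaptor gene Tyrobp had no count. Another VEGF receptor gene, Flt1, was detected with 1805 and 1750 counts (3.79 ± 0.0503 CPM per kilobase). Met, the other receptor that pairs with plexin B1, stood at 30.9 ± 0.444 CPM per kilobase, while the related Mst1r had 4 and 6 counts. Where reads of the rat transgene were counted was not tested. Of 16 tested genes of this list 3 were called higher in replicate 1 (Itgb1, Ptk7 and Sdc1) and 0 lower.

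The other guidance families, of slits, Slitrk proteins, robos, netrins, their receptors and repulsive guidance molecules, were set beside the members. Of the 28 genes with a row, 6 were detected and 13 had no count, against 35 detected and 8 without a count of the 53 members. The 3 highest per kilobase were the netrin receptor genes Neo1 (22.9 ± 0.0544) and Unc5b (15.9 ± 0.138) and Rgma (10.3 ± 0.644), which encodes a ligand of neogenin. Slit3, Slitrk1, Slitrk2, Slitrk3, Slitrk5, Slitrk6, Robo2, Ntn5, Ntng1, Unc5a, Unc5d, Hfe2 and Draxin had no count. The netrin gene Ntn1 (13.5 and 14.4 CPM) and the netrin receptor gene Unc5c (5.75 and 6.28 CPM) were also detected. Slit1, Slit2 and Dcc had 3, 1 and 1 counts over both libraries. Over all genes 37.7% were detected and 41.0% had no count, and 50.6% of protein-coding genes were detected. These counts are set side by side with no test. Of the 6 tested, Rgmb alone was called, higher in replicate 1.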

How the data were processed

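RNA of 2 TUBO libraries was extracted by column with DNase treatment and made into stranded mRNA libraries, per the labels' protocols. The authors deposited raw counts per gene symbol. Per the submitters' processing notes, the tools were STAR 2.7.9a, FastQC 0.11.9, Cell Ranger 3.0.0, featureCounts and R 4.1.1, and the build was mm10. Their roles, the annotation, the strand setting and the handling of multiply mapped reads are not stated there.

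CPM values used TMM factors of 1.005 and 0.995 from edgeR 4.0.16 under R 4.3.3. Exonic lengths came from GENCODE M21, where 98.1% of symbols had a single match. Genes passing filterByExpr (13336 genes, 99.95% of the counts) were tested between libraries with exact binomial tests. These were checked on data simulated with counting noise only, the error that the test assumes. That check therefore says nothing of spread beyond counting error. DESeq2 1.42.0 size factors, total counts, upper-quartile factors, edgeR's exact test, other detection minimums and other lengths were alternatives. To look for shared sequence, 50-base windows of member transcripts were looked up in transcripts of other genes. The highest share was 8.13% (Efna3), from its antisense gene.

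A glial marker list is not reported here. The name pattern of the members used no measured value. That pattern, the gene lists and the pairings were chosen with earlier results of these data known. Every member is named, detected members with values in each library. Of each pathway list the 3 highest per kilobase and those without a count are named. Dpysl3, the called list genes, Arhgef11, Arhgef12, Met, Mst1r, Vegfa, Vegfc, Flt1, Itga1, Ntn1, Unc5c, Slit1, Slit2 and Dcc were added after their values were seen. Without molecular identifiers, the intervals and floors describe counting error alone.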

Additional observations from a re-analysis of the deposited data

How the results depend on the processing

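The count of detected members was 35 with each scaling and with either library alone, 38, 35 and 30 at minimums of 0.5, 2 and 5 CPM, 41 at 10 counts, 45 at 1 count and 35 at 1 TPM. All 159 rescaled member levels stayed within 1 SD, by at most 0.540%. These levels are means of 2 libraries whose sizes the scalings shift in opposite directions, and members with no count stay at 0. Their stability therefore says little about the scaling. The share taken by the highest member moved with the length used. Without length it was 34.5% for Eph receptors (Ephb3 highest), 42.5% for ephrins (Efnb2 highest), 70.2% for semaphorins and 66.2% for plexins. With the longest transcript it was 33.7%, 32.0%, 74.9%, 71.7% and, for neuropilins, 99.65%. With the median transcript length it was 34.9% for Eph receptors (Epha2 highest), 74.3% for semaphorins, 62.8% for plexins and 99.63% for neuropilins. For some members short annotated transcripts set this median, as for Sema4d (571 bases, longest 4482) and Plxna1 (706.5 bases, longest 9034). Sema3b, Plxnb2 and Nrp2 led their families under each length. With either library alone, the shares were 38.18% to 38.20%, 35.6% to 36.5%, 76.0% to 76.3%, 69.2% to 70.4% and 99.7% to 99.8% in the order above. Of the 10 highest members 9, 7 and 9 stayed among the 10 with the longest transcript, the median transcript and no length. Of the 2 members called between libraries, 1 (Sema3c) was called with total counts and 1 (Sema3c) with DESeq2 size factors, both with upper-quartile factors, 0 without the expression filter, which adjusts over more genes, and 0 with edgeR's exact test. Few calls are built into that last test, since its dispersion came from the same 2 libraries. No paired analysis was possible because there is 1 group, and leaving a library out leaves no second one to test against. Ratios between genes under other lengths were computed after seeing the data. Those that turned direction were ephrin-A over EphA genes (0.934 without length, 0.623 with the median transcript), Sema3e and Sema4a over Plxnd1 (1.51, longest), Ephb4 over Ephb3 (0.953 without length, 0.518, median), Ephb4 over Epha2 (0.474, median), Ephb3 over Epha2 (0.916, median) and Efna5 over Efnb2 (0.890 without length). Depth limits genes of few counts, such as Nrp1 with an interval of 0.135 to 0.516 CPM in replicate 1.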
